A study of Mus musculus with 28 samples.

Results

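This account covers the comparison of Top2b knockout (KO) cells with wild-type (WT) cells at the stage the labels call TN day 2 of neurons, over all measured genes. The members are the 2 KO and 2 WT arrays that carry that stage and genotype, 4 of the 28 arrays of the series, and 19938 genes were measured on each. All cells of the KO and WT groups were of mouse strain 129SvEv. They were differentiated in culture from embryonic stem (ES) cells through neuronal progenitors (NP) to neurons. The labels do not spell out TN. The same 2 genotypes were also profiled as NP cells (2 KO and 2 WT arrays) and at TN day 6 (3 KO and 3 WT arrays), and these are used here only to show where TN day 2 differs. A note on the topoisomerase inhibitor ICRF-193, or DMSO, given between TN days 2 and 5 stands on every sample of the series, these 4 included, although their titles and genotype fields name no drug. How the allele was made, how many clones were used and whether the arrays of a group came from separate cultures is not stated in the labels. The p-values therefore measure only the spread between arrays, which may be technical.

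Type II topoisomerases cut both strands of a DNA helix, pass another helix through the gap and reseal the cut, which relieves the tangling and twisting that transcription and replication leave behind. Mammals have a pair of them. Top2a is the form of dividing cells, and Top2b is the form that remains in neurons after their last division, where it is known to be needed for the expression of many long neuronal genes and for the growth of axons. The comparison asks which genes differ when neurons at an early stage of their maturation form without this enzyme.

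Levels are log2 values of the deposited table, and a difference of 1 is a 2-fold change. Log2 fold changes are KO minus WT, given with the standard error (SE) of a linear model over all 28 arrays, and a gene was called when its limma p was under 0.05 after Benjamini-Hochberg adjustment over all 19938 genes. The medians of the 4 arrays lay between 6.28 and 6.35, within the range of 6.12 to 6.43 of the series. The KO arrays correlated with each other at 0.994 and the WT arrays at 0.992 over all genes. KO replicate 1 correlated with WT replicate 2 at 0.991, about as closely, and KO replicate 2 with WT replicate 1 at 0.972. WT replicate 1 was the array farthest from the KO arrays in 70.4% of the genes called higher and in 81.0% of those called lower. The median log2 difference over all genes was -0.04, and the median SE was 0.14.

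The marker lists were compared array by array. The neuronal list, of 30 cytoskeletal and axonal genes, had mean levels of 10.17 and 9.90 on the KO arrays, against 10.58 and 10.56 on the WT arrays, with Stmn2, a neuronal tubulin-binding protein, between 11.61 and 12.27 on the 4 arrays. The cells carried the neuronal markers that their label names. The files hold no detection calls, so that a level of 4 to 6 may be background. The mesenchymal and fibroblast list of 21 genes stood at 8.27 and 8.60 in KO, against 6.98 and 8.17 in WT, so that WT replicate 1 was far below the other arrays. The progenitor and radial glia list of 23 genes stood at 8.39 and 8.23 in KO, against 8.87 and 8.27 in WT, and here WT replicate 1 was above the rest. The microglia and macrophage list (5.56 and 5.48 in KO, against 5.39 and 5.56 in WT) and the pluripotency list (5.89 and 5.82 in KO, against 5.82 and 5.84 in WT) did not separate the genotypes. RNA came from whole cultures, so that fewer cells of a type and less RNA per cell cannot be told apart. Results that involve mesenchymal, matrix, progenitor or Notch genes are given below with and without WT replicate 1, and the part of cell composition in them was not tested.

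**Figure D1:**
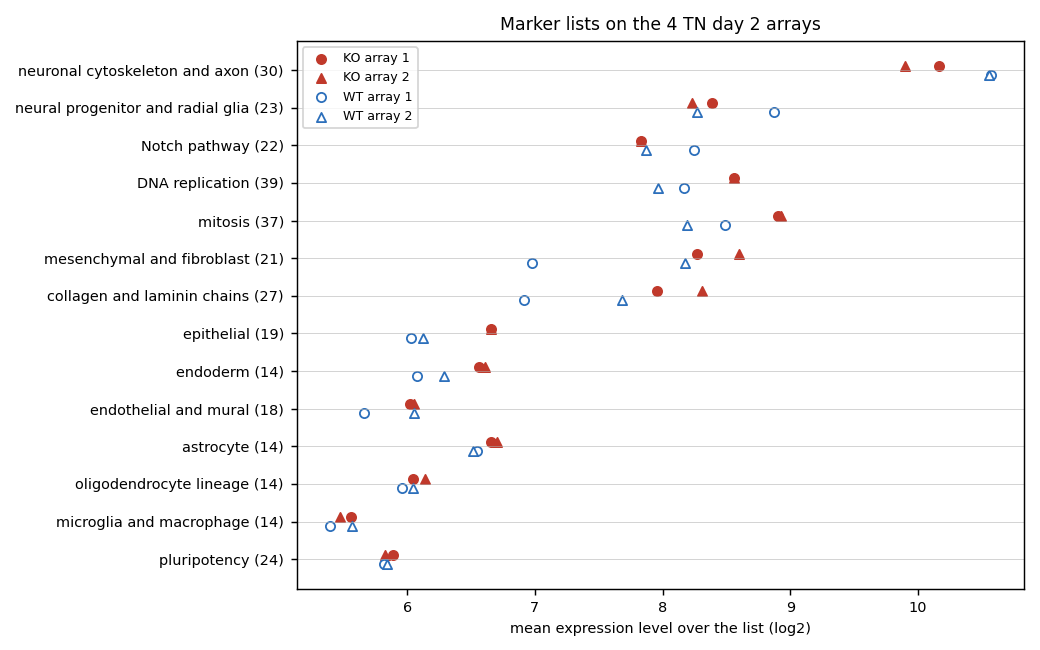
Mean expression level (log2) of 14 marker and pathway lists on each of the 4 TN day 2 arrays, KO in filled red and WT in open blue, circles for replicate 1 and triangles for replicate 2, with the number of measured genes in brackets. Values are to be read within a row; in the mesenchymal row WT replicate 1 sits at 6.98 and the other 3 arrays between 8.17 and 8.60, and in the neuronal row both KO arrays lie below both WT arrays.

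The deleted gene was examined first. Top2b had levels of 8.99 and 8.94 on the KO arrays, against 11.40 and 11.35 on the WT arrays. The groups were far apart, and the pairs within each were nearly equal. The fold change was -2.41 ± 0.24 (limma adjusted p = 1.95e-06), the largest fall of all genes called. The KO signal stayed above the array medians. Whether its probes match sequence that the KO allele lacks is not known from the files. The other 7 measured members of the family, Top2a, Top1, Top1mt, Top3a, Top3b and the repair enzymes Tdp1 and Tdp2, were not called. Top2a had 10.68 and 10.54 in KO, against 10.25 and 10.04 in WT. Its groups did not overlap, but the difference of 0.46 ± 0.21 did not pass (adjusted p = 0.196). Of the 10 measured genes that lie closest to Top2b on the chromosome, 5 on each side, 1 was called: Lrrc3b, with 6.17 and 6.22 in KO and 5.53 and 5.71 in WT, rose by 0.575 ± 0.149 (adjusted p = 0.0142), a call that ended without WT replicate 1 (0.183), without KO replicate 2 (0.131) and with the 4 arrays alone (0.0768). Rarb, the neighbour next to Top2b, had 10.17 and 10.15 in KO and 10.16 and 10.31 in WT.

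In all, 2284 genes (11.5%) were called. KO cells had 1094 genes higher (5.49%) and 1190 lower (5.97%). The counts of called genes in each list below are to be set against these shares. Rises were larger than falls: the median size was 0.78 among the higher genes and 0.51 among the lower ones, 360 genes rose and 114 fell at least 2-fold, and 44 rose and 5 fell at least 4-fold. Over all genes, both KO arrays lay above both WT arrays in 4078 (20.5%) and below them in 6223 (31.2%). In the called genes the groups were apart in all 1094 higher genes and in 1188 of the 1190 lower ones. With each array left out in turn, and under 8 other settings, 115 genes higher (0.577%) and 90 lower (0.451%) were called every time; a gene that a filter on dim genes removed was judged on the rest. The count of calls fell to 714 without WT replicate 1, to 504 without KO replicate 2 and to 315 with the 4 arrays alone.

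The 20 largest falls were led by genes of neuronal contact and signalling. Nrg3, a neuregulin that binds the ErbB4 receptor, had 5.90 and 5.63 in KO, against 7.93 and 8.02 in WT, a fold change of -2.21 ± 0.15 (limma adjusted p = 8.16e-09). Its receptor gene Erbb4 had 8.27 and 8.44 in KO, against 10.02 and 10.47 in WT (-1.89 ± 0.17, adjusted p = 6.04e-07). For both genes the KO arrays were close to each other and far below both WT arrays. Ncam2, a neural cell adhesion molecule of the immunoglobulin class, had 6.66 and 6.29 in KO, against 8.50 and 8.76 in WT. The presynaptic neurexin gene Nrxn3 had 7.75 and 7.49 in KO, against 9.55 and 9.72 in WT. The teneurin gene Tenm1, an adhesion protein that binds latrophilins across the synapse, had 5.34 and 5.00 in KO, against 7.18 and 6.91 in WT. Nrg3, Erbb4, Ncam2, Nrxn3 and Tenm1 share a long transcribed span, which runs from 423.6 kb for Ncam2 to 1612.2 kb for Nrxn3. Also among the 20 were Mdga2, Ctnna2, Adarb2, Nav3, Khdrbs2, Cntn6, Pdzrn4, Edil3, Epha5, Ccser1 and Vstm2a, with falls between 1.6 and 1.93. Of the 20, 15 spanned more than 300 kb and 15 kept their call in every alternative. Gpr50, Wnt7b and Smoc1 differed in that their WT arrays stood more than 2-fold apart. Gpr50, a relative of the melatonin receptors, had 5.23 and 5.57 in KO, against 8.70 and 6.48 in WT, and its call ended without WT replicate 1 (adjusted p = 0.244). The calls of Wnt7b, Smoc1 and Edil3 ended there too (0.0892, 0.126 and 0.0536), and those of Smoc1 and Edil3 also without KO replicate 2 (0.121 and 0.0718). That of Adarb2 ended with the 4 arrays alone (0.0507).

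The 20 largest rises had their own make-up. Kdr, the VEGF receptor that marks endothelial precursors and early mesoderm, had 8.84 and 10.35 in KO, against 5.48 and 6.68 in WT, a fold change of 3.51 ± 0.48 (limma adjusted p = 6.98e-05). The kinase gene Stk26 had 7.91 and 8.43 in KO, against 4.53 and 4.96 in WT (3.43 ± 0.18, adjusted p = 3.48e-10). The lower KO array was more than 4-fold above the higher WT array for both genes. Kdr alone was called among 12 measured early mesoderm genes, whose median fold change was -0.08. Of 18 endothelial and mural genes 3 were called higher and 0 lower, with a median of 0.01. None of these calls held in every alternative, and with the 4 arrays alone 0 were called. The median over all genes was -0.04. Wnt1, a secreted signal of the dorsal midline and midbrain, had 7.29 and 8.67 in KO, against 4.97 and 5.31 in WT. Lpl, the lipoprotein lipase, had 8.40 and 9.33 in KO, against 6.12 and 6.39 in WT. Bnc1, a zinc finger protein best known from epithelia, had 7.66 and 7.55 in KO, against 4.92 and 5.21 in WT. Also among the 20 were B130016D09Rik, Prss35, Podxl, Calcr and Lef1, whose calls held in every alternative, and Zim1, Adamts1, Arhgap29, Aldh1a2, Col14a1, Mybpc1 and Rbpms, whose calls ended with the 4 arrays alone. KO replicate 2 was the higher KO array in 18 of the 20, with Bnc1 and Aldh1a2 the exceptions. The calls of Ccdc80, Gata6 and Tagln ended without WT replicate 1 (adjusted p = 0.108, 0.0864 and 0.0978) and without KO replicate 2 (0.0889, 0.0731 and 0.0797).

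**Figure D2:**
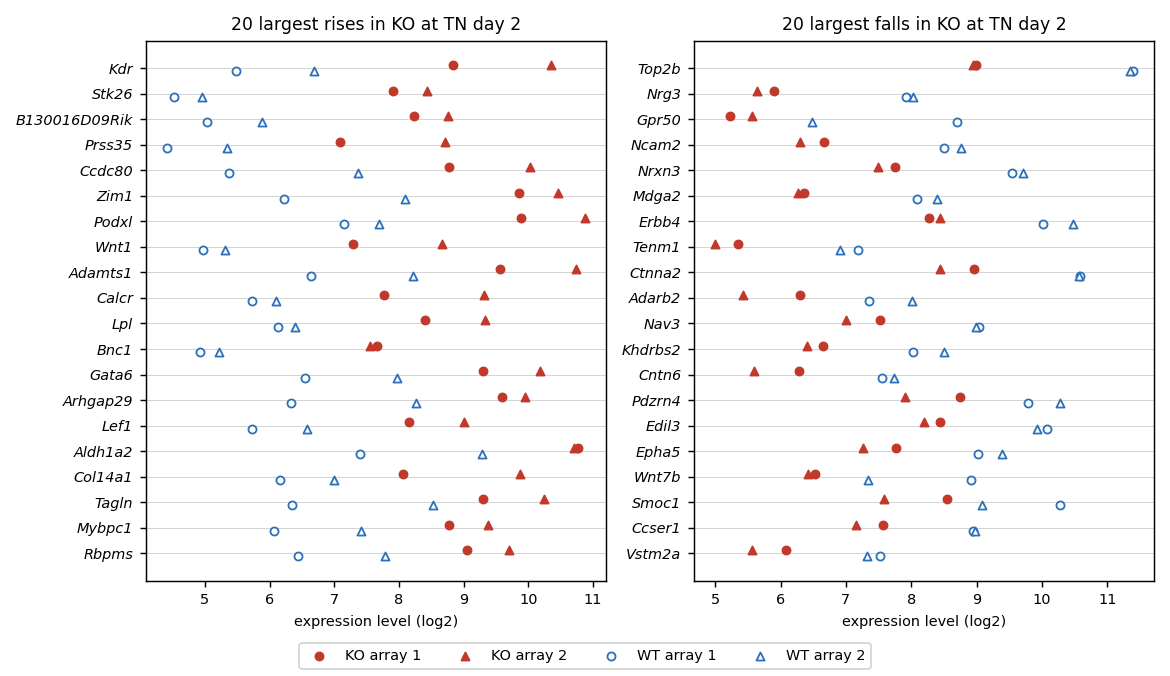
Expression levels (log2) on the KO arrays (filled red) and WT arrays (open blue) at TN day 2 for the 20 called genes with the largest rise (left) and the largest fall (right), circles for replicate 1 and triangles for replicate 2. The groups of every gene are apart. WT replicate 1 lies below WT replicate 2 in all 20 rises, with 6.21 against 8.10 for Zim1 as an example.

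Promoters of Nrg3 and Tenm1, 2 of the largest falls, are shown because their base composition was very different. Tenm1 had the fewest CpGs of the 20 largest falls and 20 largest rises with a promoter entry. Those of Stk26 and Kdr, 2 of the largest rises, were alike, with a GC content of 63.3% and 60.7%. All promoters shown are taken from RefSeq for build GRCm38.p6 and cover 300 bases around the gene's start. They run 5′ to 3′ with every CpG dinucleotide in capitals. The Nrg3 promoter holds 36 CpGs at a GC content of 74.3%, and that of Tenm1 holds 0 at 27.0%. Those of Stk26 and Kdr hold 18 and 19.
Nrg3 promoter, chr14:39473039-39473338, - strand: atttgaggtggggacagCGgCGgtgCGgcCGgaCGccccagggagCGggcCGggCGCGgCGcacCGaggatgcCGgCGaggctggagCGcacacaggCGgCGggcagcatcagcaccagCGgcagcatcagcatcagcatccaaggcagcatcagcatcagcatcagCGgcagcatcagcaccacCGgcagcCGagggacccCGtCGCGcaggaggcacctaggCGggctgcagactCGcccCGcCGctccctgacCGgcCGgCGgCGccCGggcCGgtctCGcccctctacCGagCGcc
Tenm1 promoter, chrX:43274735-43275034, - strand: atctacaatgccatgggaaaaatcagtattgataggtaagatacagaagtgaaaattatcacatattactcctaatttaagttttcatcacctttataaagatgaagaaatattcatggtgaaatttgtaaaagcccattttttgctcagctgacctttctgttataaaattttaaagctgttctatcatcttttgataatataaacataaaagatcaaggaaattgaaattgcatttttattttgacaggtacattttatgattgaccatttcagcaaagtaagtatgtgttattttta
Stk26 promoter, chrX:50841121-50841420, + strand: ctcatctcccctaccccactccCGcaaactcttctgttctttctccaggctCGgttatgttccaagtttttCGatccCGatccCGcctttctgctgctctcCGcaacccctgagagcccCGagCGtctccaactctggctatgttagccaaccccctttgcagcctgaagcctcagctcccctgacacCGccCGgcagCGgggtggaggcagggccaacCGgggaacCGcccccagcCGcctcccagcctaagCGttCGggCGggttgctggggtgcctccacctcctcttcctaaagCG
Kdr promoter, chr5:75978406-75978705, - strand: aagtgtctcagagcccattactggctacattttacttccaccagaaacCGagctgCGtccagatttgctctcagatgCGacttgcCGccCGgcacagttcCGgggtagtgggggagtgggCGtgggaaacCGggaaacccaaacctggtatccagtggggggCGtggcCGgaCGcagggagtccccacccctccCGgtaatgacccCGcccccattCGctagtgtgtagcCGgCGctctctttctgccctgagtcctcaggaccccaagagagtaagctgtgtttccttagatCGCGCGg
A promoter entry was matched for 873 genes called higher, 932 called lower and 15614 of all genes. The median number of CpGs per promoter was 20 among genes higher in KO and 21 among genes lower in KO, against 15 among all. The letters TATAAA, searched on both strands, were present in 8.25% of the promoters of higher genes, 5.90% of those of lower genes and 12.1% of all. Higher and lower genes thus both had more CpGs and fewer TATAAA matches than all genes. All genes include dim ones, since 10123 of the 19938 passed the filter on dim genes. No set of genes of like level was compared, so the part of expression level was not tested. A match is only a description of these 300 bases.

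Synaptic adhesion proteins bridge the cleft and recruit the partners on each side. Of 42 measured genes of this list, 20 fell and 1 rose, with a median fold change of -0.42 against -0.04 over all genes. Nlgn1, a postsynaptic neuroligin that binds neurexins, had 6.01 and 5.79 in KO, against 7.12 and 7.35 in WT (-1.33 ± 0.15, limma adjusted p = 1.19e-05). The latrophilin gene Adgrl3, whose product binds teneurins and FLRT proteins, had 8.90 and 9.04 in KO, against 10.29 and 10.44 in WT (-1.40 ± 0.17). Cntnap5a, of the neurexin-related Caspr family, had 5.12 and 5.21 in KO, against 6.66 and 6.34 in WT, and the contactin gene Cntn6 had 6.28 and 5.59 in KO, against 7.55 and 7.74 in WT. The groups were well apart in all of them. The paralog Adgrl2 (11.1 and 11.2 in KO, 11.2 and 11.4 in WT) and Cntn2 (8.97 and 9.68 in KO, 9.61 and 9.12 in WT), both at high levels, were not called. With the mean of its probe sets in place of the one of highest level, Adgrl2 was called lower (-0.40 ± 0.10, adjusted p = 0.00959). Of 24 immunoglobulin-type adhesion genes 17 fell and none rose, with a median of -0.65. Besides Ncam2, Mdga2, which restrains neuroligin binding, had 6.36 and 6.26 in KO, against 8.09 and 8.39 in WT, and Nrcam, a partner of ankyrins at the axon, had 9.57 and 8.99 in KO, against 10.50 and 10.38 in WT. The number of falls went down to 9 of the 24 without WT replicate 1 and likewise without KO replicate 2, and in the synaptic list to 15 and 11. With the 4 arrays alone 5 of the 24 and 8 of the 42 fell.

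Cadherins and axon guidance genes were mixed. Of 32 cadherins and catenins 8 fell and 2 rose. Ctnna2, the neuronal alpha-catenin that ties cadherins to actin, had 8.96 and 8.44 in KO, against 10.58 and 10.56 in WT (-1.87 ± 0.15, limma adjusted p = 1.30e-07), and Cdh13, a cadherin without a cytoplasmic tail, had 6.62 and 6.47 in KO, against 8.10 and 7.92 in WT. In contrast Cdh3, the placental cadherin, had 7.32 and 7.87 in KO, against 5.84 and 6.65 in WT, and rose by 1.35 ± 0.22 (adjusted p = 3.45e-04). Ctnnb1, the beta-catenin gene, had 11.41 and 11.55 in KO and 11.61 and 11.42 in WT and was not called. Of 44 guidance genes 12 fell and 3 rose. The falls numbered 6 and 8 in these lists without WT replicate 1, 5 and 8 without KO replicate 2, and 6 and 7 with the 4 arrays alone. The ephrin receptor genes Epha5 (7.77 and 7.26 in KO, 9.02 and 9.39 in WT), Epha6 (5.12 and 4.93 in KO, 6.24 and 6.95 in WT) and Ephb1 (6.81 and 6.86 in KO, 8.27 and 8.16 in WT) fell, by 1.69, 1.57 and 1.38. Sema3c, a secreted semaphorin, was higher, with 9.20 and 10.40 in KO and 7.55 and 8.24 in WT (1.9 ± 0.34), a call that ended without KO replicate 2 (adjusted p = 0.0576). Slit2, a ligand of the Robo receptors, had 10.34 and 10.42 in KO and 10.26 and 10.50 in WT. The receptor gene Robo2 had 8.84 and 8.27 in KO, against 9.87 and 10.18 in WT, a fall of 1.47 ± 0.42 (adjusted p = 0.0245) whose call was lost without WT replicate 1 (0.0992), WT replicate 2 (0.113) or KO replicate 2 (0.264).

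Receptors and channels of neuronal signalling were lower more often than higher, and many of these calls hung on 1 array. Over all genes 5.97% were called lower and 5.49% higher. Of 20 glutamate receptor genes 8 fell and none rose, and of 40 voltage-gated channel genes 13 fell and 1 rose. The falls numbered 4 and 6 without WT replicate 1, and 3 and 3 both without KO replicate 2 and with the 4 arrays alone. Of 13 GABA-A and glycine receptor genes 2 fell and 1 rose, with a median of 0.02. Grm7, a presynaptic metabotropic receptor, had 5.68 and 5.87 in KO, against 7.13 and 7.01 in WT (-1.30 ± 0.15, limma adjusted p = 1.22e-05), and the kainate receptor gene Grik2 had 7.32 and 6.83 in KO, against 8.14 and 8.41 in WT. Cacna2d3, an auxiliary calcium channel subunit, had 8.52 and 7.91 in KO, against 9.75 and 9.84 in WT (-1.58 ± 0.14). Its paralogs Cacna2d1 (8.95 and 9.27 in KO, 9.16 and 8.94 in WT) and Cacna2d2 (8.88 and 8.86 in KO, 9.07 and 9.04 in WT) were not called. Gabra4, a GABA-A receptor subunit, went the other way, with 6.89 and 7.70 in KO and 5.43 and 6.06 in WT (1.55 ± 0.23, adjusted p = 1.56e-04), a call that ended with the 4 arrays alone (0.0609). Of the transmitter genes, the vesicular glutamate transporter Slc17a6 had 6.57 and 5.26 in KO, against 7.56 and 6.94 in WT, and its call ended without WT replicate 1 (adjusted p = 0.0978) or KO replicate 2 (0.146). Gad1, which makes GABA, had 9.22 and 9.12 in KO, against 9.20 and 9.34 in WT. Its paralog Gad2 had 9.10 and 8.69 in KO, against 9.22 and 8.92 in WT, and neither was called. Of the 15 neurotrophin genes listed 12 were measured and 4 fell, and 2 did so without WT replicate 1, without KO replicate 2 and with the 4 arrays alone. The neurotrophin-3 receptor gene Ntrk3 had 6.85 and 6.42 in KO, against 8.01 and 7.92 in WT, and the sortilin family gene Sorcs3 had 6.86 and 6.62 in KO, against 8.25 and 8.37 in WT. Ngfr, the p75 receptor, had 8.59 and 8.55 in KO, against 9.33 and 9.0 in WT, and its fall of 0.60 ± 0.14 lost its call without WT replicate 1 (0.188) and without KO replicate 2 (0.0909).

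Genes of general neuronal machinery were examined next. Of 30 genes for synaptic vesicles and release 14 fell and none rose (median -0.46), and of 30 cytoskeletal and axonal genes 20 fell and none rose (median -0.50). Syt1, the calcium sensor of release, had 9.66 and 9.31 in KO, against 10.54 and 10.45 in WT, and Cadps, which primes dense-core vesicles, had 9.98 and 9.56 in KO, against 10.74 and 10.89 in WT. Snap25, a core fusion protein, had 9.74 and 9.42 in KO and 9.83 and 9.74 in WT and was not called. The RNA-binding regulators of neuronal splicing Rbfox1 (7.36 and 7.02 in KO, 8.55 and 8.51 in WT) and Nova1 (10.5 and 9.99 in KO, 11.3 and 11.5 in WT) fell by 1.34 and 1.16. Stmn2, Dpysl3 and Tubb2b, the list's uncalled members of highest level, had fold changes of -0.52, -0.39 and -0.23. KO replicate 2 was below KO replicate 1 in each of the genes just named, and without it 3 of the 30 cytoskeletal and 4 of the 30 vesicle genes were called lower, while without WT replicate 1 these were 6 and 8 and with the 4 arrays alone 3 and 4. Without WT replicate 2, 10 cytoskeletal genes were called lower.

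**Figure D3:**
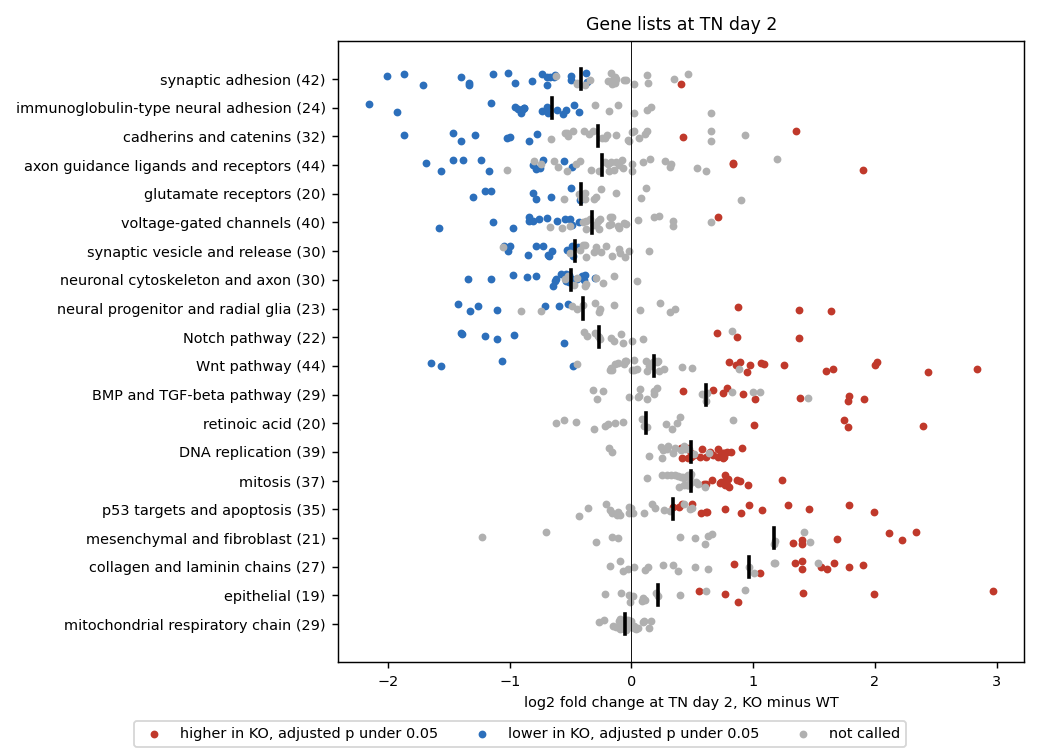
Log2 fold change at TN day 2 (KO minus WT) of each measured gene of 20 lists, with the number of genes in brackets, red for genes called higher in KO, blue for genes called lower and grey for genes not called; the black bar is the list's median. The medians of the adhesion, glutamate receptor, vesicle and cytoskeletal lists lie left of 0, DNA replication and mitosis mostly right of 0 with no gene called lower, and the 29 respiratory chain genes around 0 with no call.

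Gene span was set against the calls because the largest falls were in very long genes. Span is the distance from transcript start to transcript end in RefSeq, known for 19853 genes. The share of genes called lower was 3.42% below 10 kb, 4.74% from 10 to 30 kb, 6.33% from 30 to 100 kb, 11.9% from 100 to 300 kb and 30.8% (163 of 530) above 300 kb. The share called higher was 2.83% in the shortest class, reached 9.52% from 100 to 300 kb and was 6.98% above that. The filter on dim genes left 2413 of 6998 genes below 10 kb and 335 of 530 above 300 kb. Of the genes left, 13.0% were called lower below 10 kb, 13.0% from 10 to 30 kb and 13.6% from 30 to 100 kb. From 100 to 300 kb the share was 21.1%, and above 300 kb it was 46.6%. The share was thus nearly level below 100 kb once dim genes were left out. Without WT replicate 1, 18.1% of genes above 300 kb and 0.643% of those below 10 kb were called lower, and without KO replicate 2 15.7% and 0.857%. The 90 genes lower in every alternative had a median span of 398.3 kb and 74 of them (82.2%) exceeded 100 kb, against a median of 17.7 kb and 11.6% over all genes. The 115 genes higher in every alternative had a median of 36.2 kb.

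Span and neuronal expression go together, so genes were also split by a measure from arrays outside this comparison. Genes were classed by whether their mean on the 3 arrays of DMSO-treated cortical neurons was at least 4-fold above or below that of WT NP cells. Of 778 genes above, 34.4% were lower in KO at TN day 2 and 3.60% higher. Of 727 genes below, 31.5% were higher in KO and 4.95% lower. Within the first class the share lower was 25.8% under 10 kb and 54.2% over 300 kb. Among the 18433 genes that differed by less than 4-fold, it was 3.0% under 10 kb and 22.9% over 300 kb. In these 2 classes the share was highest above 300 kb, and in each span class it was higher among the neuron-enriched genes. The class lower in cortical neurons differed. Its share lower in KO was 14.9% from 100 to 300 kb and 9.52% (2 of 21) over 300 kb. Of those 21 genes, 38.1% were higher in KO. These shares are descriptions over all genes, dim ones included, and no test was made on them.

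**Figure D4:**
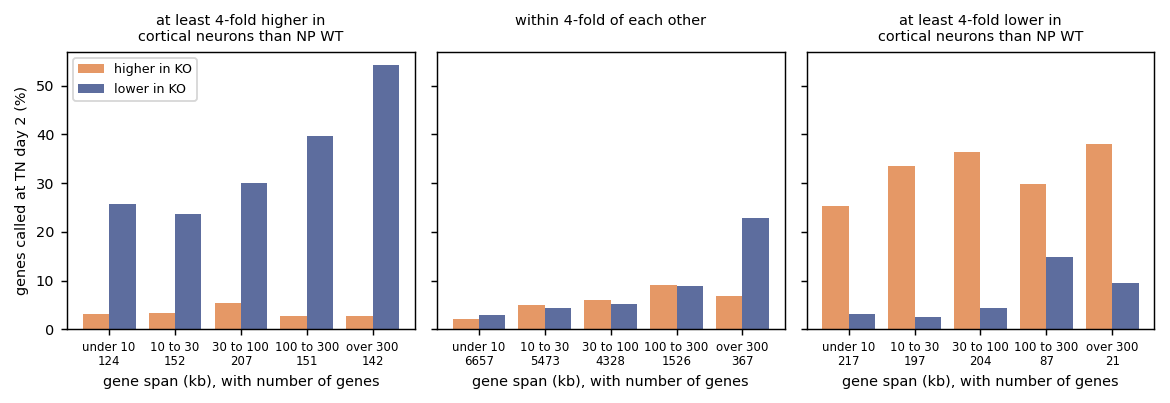
Percent of genes called higher (orange) and lower (blue) in KO at TN day 2, by gene span in kb with the number of genes under each pair of bars, for genes at least 4-fold higher in cortical neurons than in WT NP cells (left), genes within 4-fold (middle) and genes at least 4-fold lower (right). The lower share reaches 54.2% in the longest genes of the left panel and 22.9% in those of the middle panel. It is 9.52% in those of the right panel, where 38.1% are higher.

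Many genes of proliferating cells were higher in KO. Of 39 DNA replication genes 23 rose and none fell (median 0.49), and of 37 mitosis genes 16 rose and none fell (median 0.49). The helicase subunit gene Mcm6 had 9.56 and 9.53 in KO, against 8.71 and 8.74 in WT (0.82 ± 0.13, limma adjusted p = 2.52e-04), and Pole2, of the leading-strand polymerase, had 7.17 and 7.05 in KO, against 6.41 and 6.24 in WT. Pcna, the sliding clamp, had 10.91 and 10.77 in KO and 10.59 and 10.41 in WT, a difference of 0.34 that did not pass (adjusted p = 0.0673). Among mitosis genes, Ncapg2, of the condensin complex, had 8.21 and 8.27 in KO, against 7.28 and 7.42 in WT (0.89 ± 0.15), and Anln, a scaffold of the cleavage furrow, had 8.78 and 9.03 in KO, against 7.63 and 7.71 in WT. The call of Anln ended without KO replicate 2 (0.0557), while those of Mcm6, Pole2 and Ncapg2 held in every alternative. Mki67, the proliferation marker, had 9.89 and 9.85 in KO and 9.55 and 9.33 in WT and was not called. Whatever their call, both KO arrays were above both WT arrays in 36 of the 39 replication and 36 of the 37 mitosis genes. Over all genes this share was 20.5%. The counts were 16 and 11 without WT replicate 1, 5 and 1 without KO replicate 2, and 6 and 8 with the 4 arrays alone. They were 15 and 9 without KO replicate 1 and 12 and 6 without WT replicate 2.

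The list of p53 targets and apoptosis genes had 15 of 35 genes higher (42.9%) and none lower, with a median of 0.34. Over all genes 5.49% were higher and 5.97% lower, and the median was -0.04. Perp, a membrane protein of p53-dependent death and of desmosomes, had 7.28 and 7.95 in KO, against 5.12 and 6.12 in WT (1.99 ± 0.25, limma adjusted p = 3.06e-05). The death receptor gene Tnfrsf10b had 8.36 and 9.10 in KO, against 6.18 and 7.72 in WT, and Eda2r, another receptor of that family, had 9.83 and 10.28 in KO, against 8.02 and 9.17 in WT. All 3 lost their call with the 4 arrays alone, but kept it with any 1 array left out. Mcl1, which guards cells from death, had 10.94 and 10.91 in KO and 11.07 and 11.01 in WT. The list had 6 genes higher without WT replicate 1, 3 without KO replicate 2 and 0 with the 4 arrays alone.

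Called genes of the Wnt, BMP and retinoic acid pathways were mostly higher in KO, against 5.49% called higher and 5.97% lower over all genes. Most genes of each list were not called: 26 of 44, 19 of 29 and 16 of 20. Of 44 Wnt pathway genes 14 rose and 4 fell. Besides Wnt1, the ligand gene Wnt2b had 7.98 and 7.96 in KO, against 5.55 and 6.39 in WT (2.0 ± 0.22, limma adjusted p = 7.78e-06), and Lef1, the transcription factor through which beta-catenin acts, had 8.16 and 9.01 in KO, against 5.72 and 6.57 in WT (2.44 ± 0.31). Wnt7b, a ligand of forebrain progenitors, went the other way, with 6.53 and 6.42 in KO, against 8.91 and 7.34 in WT. Lrp6, the co-receptor, had 9.66 and 9.82 in KO and 9.62 and 9.59 in WT and was not called. Of 29 BMP and TGF-beta genes 10 rose and none fell. Bmp4, a dorsalizing ligand, had 8.52 and 9.01 in KO, against 6.85 and 7.91 in WT (1.38 ± 0.24), and Id1, a target of BMP signals, had 8.48 and 8.87 in KO, against 7.5 and 7.82 in WT (1.02 ± 0.18). Of 20 retinoic acid genes 4 rose and none fell. Aldh1a2, which makes retinoic acid in mesoderm and meninges, had 10.76 and 10.70 in KO, against 7.39 and 9.29 in WT (2.39 ± 0.36), and Rdh10, the step before it, had 10.94 and 11.67 in KO, against 9.06 and 9.99 in WT (1.78 ± 0.22). Aldh1a2 and Rdh10 kept their calls with either WT array left out. With the 4 arrays alone Bmp4, Id1, Aldh1a2 and Rdh10 all lost them (adjusted p = 0.0971, 0.0505, 0.0797 and 0.0594). The 3 lists had 9, 4 and 4 genes higher without WT replicate 1, 4, 3 and 4 without KO replicate 2, and 3, 0 and 0 with the 4 arrays alone.

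Matrix and mesenchymal genes were higher in KO where they were called, and the calls depended on single arrays. Of 21 mesenchymal and fibroblast genes 7 rose and none fell (median 1.17), and of 27 collagen and laminin genes 10 rose and none fell (median 0.97). Col3a1, a fibrillar collagen, had 10.999 and 11.30 in KO, against 8.98 and 10.97 in WT, and Dcn, a proteoglycan of connective tissue, had 10.91 and 11.37 in KO, against 8.37 and 10.96 in WT. For these genes of highest level WT replicate 2 was within or next to the KO range, WT replicate 1 was far lower, and neither was called (limma adjusted p = 0.0606 and 0.0799). Left without WT replicate 2, both were (1.44e-04 and 2.61e-04). Tagln, an actin-binding protein of smooth muscle and fibroblasts, had 9.30 and 10.24 in KO, against 6.35 and 8.53 in WT (2.33 ± 0.46). Without WT replicate 1, and also without KO replicate 2, none of the 21 mesenchymal genes was called, and 6 of the 27 matrix genes were. With the 4 arrays alone these were 0 and 1, and without WT replicate 2 they were 12 and 16. With array weights 12 mesenchymal genes were called. Col18a1, a basement membrane collagen, had 8.70 and 9.15 in KO, against 7.07 and 7.58 in WT (1.6 ± 0.27, limma adjusted p = 5.40e-04), and was higher in every alternative. Of 19 epithelial genes 6 rose and none fell, and 3 were called without WT replicate 1, 3 without KO replicate 2 and 4 with the 4 arrays alone. The desmosomal plakin gene Dsp had 7.17 and 7.58 in KO, against 5.71 and 6.22 in WT, and the sialomucin gene Podxl had 9.89 and 10.88 in KO, against 7.14 and 7.68 in WT; both kept their calls in every alternative. Cdh1, the defining cadherin of epithelia, had 6.85 and 6.64 in KO and 6.90 and 6.37 in WT and was not called. The mean levels of the mesenchymal and matrix lists were higher on both KO arrays than on either WT array. The WT arrays themselves stood far apart, at 6.98 and 8.17 for the mesenchymal list and 6.92 and 7.68 for the matrix list. KO had 8.27 and 8.60, and 7.96 and 8.31. The part of these lists in the rises above was not tested.

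Progenitor and Notch genes moved both ways, and most were not called. Of 23 progenitor and radial glia genes 7 fell and 3 rose, and of 22 Notch pathway genes 6 fell and 3 rose. Both KO arrays lay below both WT arrays in 9 of the 23 and 11 of the 22, against 31.2% of all genes. They lay above both in 4 genes of each list, against 20.5% of all genes. Pax6, a transcription factor of forebrain radial glia, had 7.62 and 7.06 in KO, against 9.14 and 8.06 in WT, and fell by 1.26 ± 0.29 (limma adjusted p = 0.0062). The Notch ligand gene Dll1 had 8.86 and 8.24 in KO, against 10.29 and 9.23 in WT, and the Notch target gene Hes5 had 8.05 and 7.55 in KO, against 9.57 and 8.23 in WT. In all 3 the groups were apart by under 0.5, and WT replicate 1 was more than 1 above WT replicate 2. Without WT replicate 1 no progenitor or Notch gene was called lower, while 2 progenitor genes were still called higher, and the adjusted p of Pax6, Dll1 and Hes5 was 0.240, 0.0926 and 0.239; without KO replicate 2 it was 0.154, 0.0877 and 0.150. Hes1, a Notch target that was higher in KO (8.50 and 9.01, against 7.13 and 7.63 in WT), lost its call there too (0.0765) and without KO replicate 2 (0.0877). Emx2, a factor of the dorsal forebrain, had 7.16 and 7.65 in KO and 5.60 and 5.92 in WT, and lost its call only without KO replicate 2 (0.0555). Vim, at 12.10 and 12.06 in KO and 12.19 and 11.83 in WT, was not called.

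Several groups of genes stayed near the median of all genes. None of the 16 cholesterol synthesis genes, 29 respiratory chain genes or 14 microglia and macrophage genes was called, with medians of -0.08, -0.05 and -0.00 against -0.04 over all genes. A gene that is not called may still differ by less than the test resolves. Of 28 Hox genes 2 fell (7.14%). Hoxa5, which sets hindbrain and cervical position, had 11.15 and 11.22 in KO and 11.23 and 11.21 in WT. Of 17 proneural and neuronal bHLH genes 1 rose (5.88%) and none fell. The Hox and bHLH shares were near those over all genes, 5.97% lower and 5.49% higher. Of 24 genes of the ATF4 and endoplasmic reticulum stress list 2 rose, the chaperones Hspa5 and Hsp90b1, by 0.42 and 0.41, and both calls ended without WT replicate 1 (limma adjusted p = 0.106 and 0.167) and without KO replicate 2 (0.154 and 0.232). Sst, the somatostatin gene of interneurons, had 9.72 and 10.22 in KO and 9.88 and 10.03 in WT.

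The other stages place these differences in time. In NP cells 76 genes were higher in KO (0.381%) and 49 lower (0.246%), far fewer than at TN day 2. Of the 1190 genes lower at TN day 2, 16 were lower in NP cells, and of the 1094 higher, 21 were higher there. Nrxn3 was lower by 1.06 and Stk26 higher by 1.51 already in NP cells. At TN day 6, with other arrays, 1072 genes were higher in KO (5.38%) and 958 lower (4.80%). Lower at both stages were 254 genes, 21.3% of those lower at TN day 2 and 26.5% of those lower at TN day 6. Higher at both were 300 genes, 27.4% and 28%. Opposite calls were made for 64 genes lower at TN day 2 and higher at TN day 6, and for 21 genes the other way. The 64 were 5.38% of the genes lower at TN day 2, and over all genes 5.38% were higher at TN day 6. The 21 were 1.92% of the genes higher at TN day 2, and over all genes 4.80% were lower at TN day 6. Opposite calls were thus no more frequent than over all genes.

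The difference between the stages was tested itself, as the KO effect at TN day 6 minus that at TN day 2. It passed for 957 genes (4.80%), 540 positive (2.71%) and 417 negative (2.09%). Without WT replicate 1 it passed for 389, and without KO replicate 2 for 391. Of the 1190 genes lower at TN day 2, 288 (24.2%) had a positive difference and 22 a negative one. Of the 1094 higher, 228 (20.8%) had a negative difference and 7 a positive one. These genes were chosen by their TN day 2 effect, which the difference subtracts, so the choice itself favours these signs; the counts here, and those of the 20 largest changes below, are descriptions. Of the 20 genes that fell most, 13 were lower at TN day 6 and 2 higher, and 8 had a positive difference between the stages and 0 a negative one. Among the long genes of that set were some with like values at both stages: at TN day 6 the fold changes were -2.50 for Nrg3, -2.17 for Ncam2, -1.9 for Ctnna2, -2.04 for Tenm1 and -1.76 for Nrxn3, and their differences between stages were between -0.29 and 0.25 and did not pass. Others were closer to WT at TN day 6: Adarb2 had a fold change of 0.08 there, and the differences of Adarb2, Cntn6 and Epha5 were 1.9, 1.31 and 1.22 and passed. Cntnap5a and Adgrl3 had fold changes of -2.73 and -2.46 at TN day 6, with differences of -1.39 (limma adjusted p = 0.006) and -1.07 (0.0067). Cdh10, a type II cadherin, was lower at TN day 2 by 1.40 (7.54 and 7.55 in KO, against 8.93 and 8.96 in WT) and by 0.32, without a call, at TN day 6, and its difference of 1.08 passed (9.88e-04). In NP cells it was higher in KO, by 0.73 (limma adjusted p = 0.0126).

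Of the 20 genes that rose most, 15 had a negative difference between the stages and 0 a positive one. At TN day 6, 3 of them were higher in KO and 2 lower. Kdr had fold changes of 3.51 at TN day 2 and -0.12 at TN day 6 (difference -3.63, limma adjusted p = 0.00123), and Stk26 3.43 and 0.15 (difference -3.28, adjusted p = 2.85e-08). Wnt1, Lef1 and Wnt2b had 0.10, 0.01 and 0.17 at TN day 6, and their differences of -2.75, -2.43 and -1.83 passed. Lpl turned over: it was higher in KO by 2.61 ± 0.20 at TN day 2 and lower by 2.65 ± 0.16 at TN day 6, a difference of -5.25 (adjusted p = 6.29e-11). Pax6, Sox21 and Wnt7b turned the other way, with -1.26, -1.33 and -1.65 at TN day 2 and 2.32, 1.68 and 1.03 at TN day 6. Of the 23 progenitor genes 11 had a positive difference between stages and 1 a negative one. The TN day 2 calls of Pax6, Sox21 and Wnt7b ended without WT replicate 1 (adjusted p = 0.240, 0.205 and 0.0892), and at TN day 6, where that array has no part, 12 of the 23 were higher in KO and 1 lower. Pcdh8, an activity-regulated protocadherin, turned as well and was called in every alternative. It had 7.22 and 7.17 in KO, against 8.26 and 8.17 in WT, at TN day 2 (-1.02 ± 0.15), and was higher in KO by 0.44 ± 0.12 at TN day 6 (difference 1.46, adjusted p = 6.4e-05). Mitosis genes, in contrast, were higher at both stages, 16 of 37 at TN day 2 and 36 of 37 at TN day 6, with medians of 0.49 and 1.06.

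**Figure D5:**
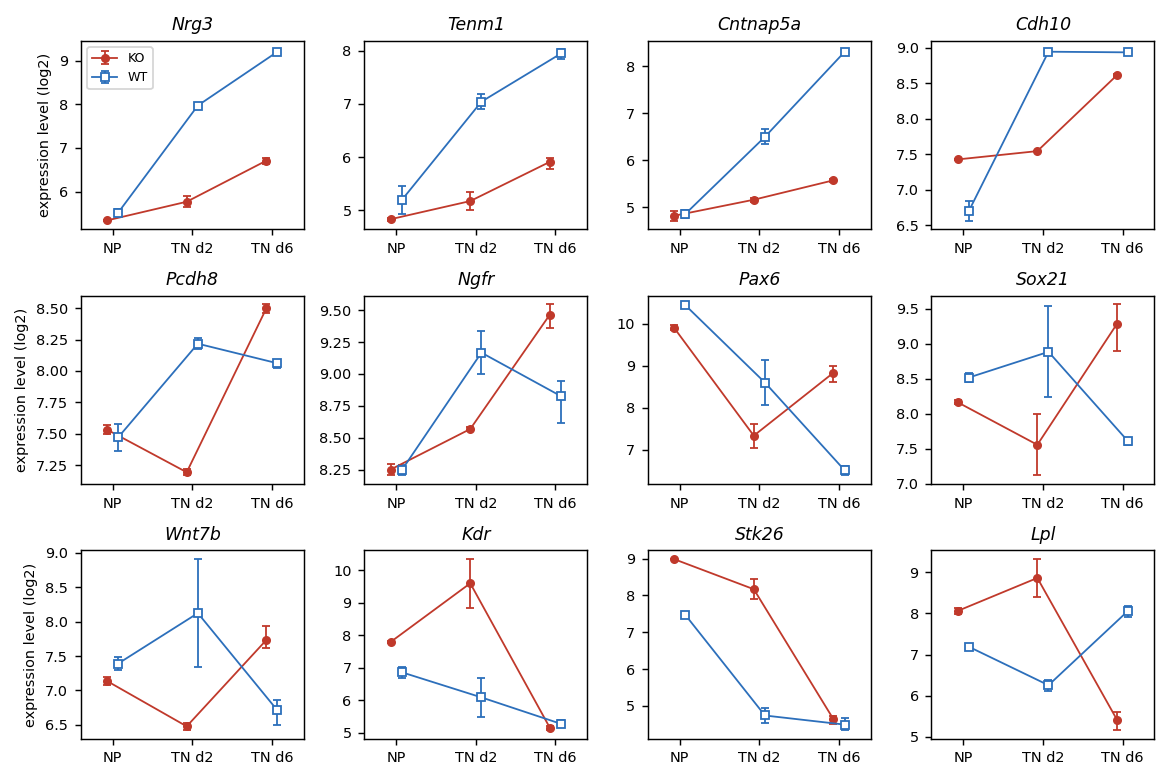
Expression level (log2) of 12 genes in NP cells and at TN day 2 and TN day 6, KO in filled red and WT in open blue; points are means of 2, 2 and 3 arrays and bars run from the lowest to the highest array. Nrg3, Tenm1 and Cntnap5a are lower in KO at both TN stages, Pcdh8, Ngfr, Pax6, Sox21 and Wnt7b cross between the stages, and Kdr and Stk26 are higher in KO at TN day 2 and meet WT at TN day 6.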

How the data were processed

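RNA of 28 mouse cultures was measured on Affymetrix gene arrays, and the authors deposited 1 table of normalized log2 values for 35556 probe sets; the submitters' processing notes name the R package oligo 1.14.0. The labels do not give the log base, which was read as 2. Deposited values were used unchanged. Probe sets with 1 gene symbol in GEO's platform annotation (21789; 1621 had several and 12146 none) were kept, and 999 genes with several were represented by the probe set of highest mean, which left 19938 genes. All arrays entered 1 limma 3.58.1 fit (R 4.3.3) with a mean for each of 12 groups, 16 residual degrees of freedom and two-sided moderated tests. The genes named are Top2b's family, the 20 largest called rises and falls and, from each list, up to 6 called genes by size of change and up to 3 uncalled ones by level; neighbours of Top2b were taken by place, and genes singled out after their values were seen are marked so. The members and lists were chosen with earlier results of these data known. The script was tested on simulated data. The alternatives were other normalizations, variance models, filters and subsets of arrays. The number of arrays limits the precision.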

Additional observations from a re-analysis of the deposited data

Results flagged for a closer look

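The KO effect at TN day 6 differed from that at TN day 2, by a limma test of the difference itself, for 957 genes, among them genes named above. The values given here are the log2 effect at TN day 6 minus that at TN day 2. Genes are grouped by their TN day 2 effect, which the difference subtracts, so the grouping itself favours the opposite sign. Some TN day 2 effects leaned on WT replicate 1. Without it that of Gpr50 went from -2.19 to -1.08, Pax6 from -1.26 to -0.72 and Sox21 from -1.33 to -0.68. Wnt7b went from -1.65 to -0.86, Hes5 from -1.10 to -0.44 and Tagln from 2.33 to 1.24.

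Of the genes higher in KO at TN day 2, the difference was negative for Lpl (-5.25), Kdr (-3.63), Col14a1 (-3.38), Stk26 (-3.28), B130016D09Rik (-3.20), Zim1 (-2.96), Wnt1 (-2.75), Calcr (-2.50), Lef1 (-2.43), Bnc1 (-2.36), Podxl (-2.17), Tagln (-2.14), Adamts1 (-2.13), Mybpc1 (-2.07), Rbpms (-2.0), Perp (-1.95), Wnt2b (-1.83), Peg3 (-1.6), Cdh3 (-1.53), Tnfrsf10b (-1.38), Dsp (-1.21), Bmp4 (-1.19), Gabra4 (-1.18), Rdh10 (-1.15), Lrrc3b (-1.06) and Wt1 (-0.98). Of the genes lower in KO at TN day 2, the difference was positive, so that the gap had narrowed, closed or turned by TN day 6, for Gpr50 (3.75), Pax6 (3.58), Sox21 (3.01), Wnt7b (2.67), Smoc1 (2.19), Adarb2 (1.9), Dll1 (1.77), Hes5 (1.72), Pdzrn4 (1.54), Pcdh8 (1.46), Cntn6 (1.31), Ngfr (1.24), Epha5 (1.22), Cdh10 (1.08), Vstm2a (0.90), Epha6 (0.83), Cacna2d3 (0.77), Nova1 (0.67), Gpc2 (0.62) and Pcdhb8 (0.49). It was negative, so that the gap had widened, for Cntnap5a (-1.39), Grik2 (-1.10) and Adgrl3 (-1.07). Of genes not called at TN day 2, it passed for Cacna2d1 (-0.95), Adgrl2 (-0.63) and Top2a (1.32).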

How the results depend on the processing

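Of the 12 alternatives, 3 moved the count of 2284 changed genes by more than 1.5 times. With the 4 arrays alone, which leave 2 residual degrees of freedom, 315 genes were called, 192 higher and 123 lower. With 1 array left out, where the lone array is assumed to vary like the other groups, the count ran from 504 (without KO replicate 2) to 2364 (without WT replicate 2), with 714 without WT replicate 1. Genes higher ran from 267 to 1147 and genes lower from 237 to 1419, each lowest without KO replicate 2, and without WT replicate 1 they were 436 and 278. The count of genes whose effect differed between TN day 6 and TN day 2 was 957. It ran from 389 (without WT replicate 1) to 1425 with 1 array left out, was 391 without KO replicate 2 and was 1555 with array weights. Quantile normalization, median centring, the variance trend, the filter on dim genes and the mean of probe sets kept each count within 1.5 times. Whether replicate numbers pair the samples is not known. Deviations of same-numbered TN day 2 arrays from their group means correlated at 0.137, and those at TN day 6 at -0.019, 0.013 and 0.071. These values cannot decide it, because 2 arrays a group give only 1 value at TN day 2. With a replicate block 2214 genes were called, 1102 higher and 1112 lower, and 1022 differed between the stages. None of the 103 called genes named in the text changed direction at TN day 2 under any of the 12. With 2 arrays a group, changes near the median SE of 0.14 could not be called.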

Other observations

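The beta protocadherins, clustered adhesion genes from which neurons draw a combinatorial surface label, were lower in KO as a group, although they are short. Of 22 measured members 11 were called lower and 0 higher, 6 of them in every alternative, and both KO arrays lay below both WT arrays in 21. Over all genes both KO arrays lay below both WT arrays in 31.2%. The median fold change of the 22 was -0.69, with a range of -1.29 to -0.08, against -0.04 over all genes. Their spans were 2.3 to 5.3 kb. Pcdhb10 had 7.76 and 7.62 in KO, against 8.98 and 8.98 in WT, and Pcdhb8 had 7.29 and 7.33 in KO, against 8.17 and 8.19 in WT. At TN day 6, 4 of the 22 were called lower, and in NP cells 0 were. The group was singled out after its values were seen and carries no test, and its members are so alike in sequence that probe sets may share targets.

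Among genes up to 10 kb long, 10 were lower in every alternative. Besides Pcdh8 and the 6 beta protocadherins these were Agtr2, an angiotensin receptor gene, with 6.27 and 6.09 in KO and 7.52 and 7.24 in WT, Gpc2, a glypican of developing axons, with 10.42 and 10.27 in KO and 11.16 and 11.02 in WT, and Hap1, the huntingtin-associated protein, with 8.32 and 7.98 in KO and 9.30 and 9.01 in WT. Genes up to 10 kb numbered 6998 and genes above 300 kb 530. The genes named in this paragraph were picked after their values were seen. Of genes above 300 kb, 2 were higher in every alternative: Adk, adenosine kinase, with 8.94 and 9.41 in KO and 7.85 and 8.07 in WT, and Diaph3, an actin nucleator of dividing cells, with 8.15 and 8.59 in KO and 6.47 and 7.10 in WT.

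Besides Top2b, 6 genes were called lower in NP cells, at TN day 2 and at TN day 6: Cacna2d3, Dcc, Dner, Nlgn1, Nrxn3 and Pid1. Dner, a neuronal Notch ligand, had 9.99 and 9.81 in KO, against 11.33 and 11.22 in WT, at TN day 2 (-1.37 ± 0.09), and the netrin receptor gene Dcc had 9.61 and 9.39 in KO, against 10.95 and 10.39 in WT. Tyms, thymidylate synthase, and Wt1, a transcription factor of mesothelium, were called higher at all 3 stages, although the TN day 2 call of Tyms ended without KO replicate 2 (adjusted p = 0.0501). Wt1 had 8.98 and 9.47 in KO, against 7.13 and 7.82 in WT, at TN day 2. These genes were picked after their values were seen.

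Of 25 glycolysis and hypoxia genes 5 were higher in KO and 0 lower, and 2 were higher without WT replicate 1, 2 without KO replicate 2, 3 without WT replicate 2, 3 with median centring and 1 with the 4 arrays alone. Ldha, lactate dehydrogenase A, had 10.45 and 10.73 in KO, against 9.01 and 9.49 in WT, and was higher in every alternative. Of 19 imprinted genes 4 were higher and 1 lower. The 4 were Zim1, Grb10, Igf2r and Peg3, with fold changes of 3.0, 1.0, 1.06 and 1.20, and Nnat was lower by 0.48. Without WT replicate 1, and also without KO replicate 2, 1 imprinted gene was called higher and 0 lower, and with the 4 arrays alone none was called. With array weights 7 were higher.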
